A study of Homo sapiens with 6 samples.

Results

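The aminoacyl-tRNA synthetases and their scaffold proteins were followed in A375 cells, a human melanoma line, after 72 h with palbociclib, with GSK3326595 or with vehicle. Members were taken by gene symbol: every symbol of the form letter-ARS, with or without a final 1 or 2, and in addition EPRS1, FARSA, FARSB, AIMP1, AIMP2 and EEF1E1. This gave 40 of the 28395 genes in the tables. Of these, 18 encode cytosolic enzymes or their subunits, 17 encode mitochondrial enzymes, 2 (GARS1 and KARS1) encode the enzyme of both compartments, and 3 (AIMP1, AIMP2 and EEF1E1) encode scaffold proteins. GARS1 and KARS1 were counted with the cytosolic enzymes, which makes 20 of them. Total RNA depleted of ribosomal RNA was sequenced in 6 libraries, 2 per group. The palbociclib group (PD991 in the titles) received 1 µM of this inhibitor of the kinases CDK4 and CDK6. The GSK3326595 group (CTX in the titles) received 500 nM of this inhibitor of the arginine methyltransferase PRMT5, and the control group grew in 0.01% DMSO. All 3 groups are the same line in RPMI medium, and nothing in the labels tells if replicates came from separate cultures. The p-values then describe only the spread of these libraries, and that spread may be technical.

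An aminoacyl-tRNA synthetase joins an amino acid to the tRNA that carries its anticodon, the step that fixes the genetic code before the ribosome reads it. Human cells make 1 set of enzymes for the cytosol and another for mitochondria, where the few proteins encoded by mitochondrial DNA are translated, and nearly all are products of separate nuclear genes. In the cytosol several synthetases sit with AIMP1, AIMP2 and EEF1E1 in the multisynthetase complex. Transcription of many cytosolic synthetase genes is known to be driven by ATF4, the factor that is translated when amino acids are short or the endoplasmic reticulum is stressed.

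The letters TGATGNAA are those of the composite C/EBP and ATF element that ATF4 is known to bind, and they were searched on both strands in the promoter windows that RefSeq sequences of GRCh38.p14 gave for 33 of the 40 members. A window covered 250 bases before to 50 bases after a start of the gene, which need not be its outermost one. The motif was in 8 of the 33 windows (24.2%), against 4.46% of the windows of all 27305 genes. It was in 7 of 16 windows of cytosolic enzymes and in 1 of 14 windows of mitochondrial enzymes, that of YARS2. The 8 matches are shown because nearly all were in the cytosolic class. Each is printed with 11 bases on either side, in the orientation of the motif, with the motif in capitals, and 6 of them read TGATGCAA.
AARS1: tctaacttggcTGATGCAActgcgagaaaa
CARS1: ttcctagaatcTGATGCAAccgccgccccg
IARS1: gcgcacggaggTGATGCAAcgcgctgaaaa
MARS1: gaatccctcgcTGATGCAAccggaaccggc
NARS1: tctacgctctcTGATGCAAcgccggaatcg
TARS1: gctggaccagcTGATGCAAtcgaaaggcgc
GARS1: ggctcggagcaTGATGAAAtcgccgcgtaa
YARS2: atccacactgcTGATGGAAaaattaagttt
The AARS1 window lies at chr16:70289675-70289704 (plus strand) and the CARS1 window at chr11:3057407-3057436 (plus strand). IARS1 has its window at chr9:92293692-92293721 (plus strand) and MARS1 at chr12:57488053-57488082 (minus strand). The NARS1 window is chr18:57621804-57621833 (minus strand), and that of TARS1 is chr5:33440956-33440985 (minus strand). For GARS1 it is chr7:30594834-30594863 (minus strand), and for YARS2 chr12:32756076-32756105 (minus strand). The centre of the match was 183 bases before the start of the window's gene in AARS1 and 193 before it in YARS2. In the other 6 genes it was within 29 bases of the start used. For GARS1 and TARS1 that start lies inside the gene, which begins at 30594735 and 33440696. A match of these letters is a description of the sequence and no evidence of binding. CACGTG, the E-box letters, was in 5 of the 33 windows (15.2%, against 8.77% of all genes), among them those of CARS2, EARS2 and MARS2. TTTCCCGC, letters of an E2F site, was in 2 (6.06%, against 1.98%), in TARS1 and RARS2. TGACGTCA, a cyclic AMP response element, was in 1 (3.03%, against 2.25%) and TTTGAA in 1 (3.03%, against 18.2%).

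HARS1 and HARS2, the cytosolic and mitochondrial histidyl-tRNA synthetases, lie head to head on chromosome 5. The starts of the 2 genes in RefSeq, at 140691370 on the minus strand and 140691455 on the plus strand, leave 84 bases between them (59.5% G or C), shown here because HARS1 was called with palbociclib and HARS2 with GSK3326595. Other annotated transcripts of the 2 genes overlap. The stretch is chr5:140691371-140691454 on the plus strand.
HARS1 and HARS2: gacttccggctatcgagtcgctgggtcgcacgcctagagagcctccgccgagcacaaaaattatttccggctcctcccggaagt

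The libraries held between 16589153 and 20842099 counts each. Levels are given as CPM, the count scaled to 1000000 counts of the library, with library sizes adjusted by TMM, a scaling that equalizes the bulk of genes. The first principal component took 52.3% of the variance and the second 25.3%, and the 2 libraries within each group differed beyond counting error (chi-square per degree of freedom 5.38 for palbociclib, 10.2 for GSK3326595 and 8.09 for DMSO), so none was merged. Of the melanocyte lineage markers, SOX10 (122 to 237 CPM over the 6 libraries) and MITF (57.4 to 87.3 CPM) were present, and the pigment genes TYR, DCT, PMEL and MLANA were at most 2.45 CPM in any library. The epithelial keratin genes KRT8 (124 to 179.8 CPM) and KRT18 (465 to 598 CPM) were also present. Other epithelial markers of the same list were low in every library: KRT5 (at most 1.10 CPM), EPCAM (at most 0.711) and CDH1 (at most 0.175). KRT14 ran from 1.98 to 8.35 CPM. S100B (1.66 ± 0.188, log2 fold change of palbociclib over DMSO ± SE, edgeR adjusted p = 3.15e-05) and KRT14 (1.86 ± 0.237, adjusted p = 7.98e-05) rose with palbociclib and KRT8 fell (-0.36 ± 0.0905, adjusted p = 0.00734), while MITF rose with GSK3326595 (0.49 ± 0.0901, adjusted p = 0.00324). The 6 blood markers summed to 14 to 14.5 CPM with palbociclib, 4.60 to 6.75 CPM with GSK3326595 and 4.73 to 4.90 CPM with DMSO, mostly LYZ, and the 6 fibroblast and endothelial markers to 21.9 to 26.9, 50.1 to 58.2 and 37.6 to 45.8 CPM in the same order. Their part in the results below was not tested. In bulk RNA of this kind, fewer cells of a type and less RNA per cell cannot be told apart.

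All 40 members passed the filter on low counts, with between 109 and 9948 counts per library. Per kilobase of annotated exon, the median cytosolic enzyme was at 40.9 CPM per kb with palbociclib, 47.0 with GSK3326595 and 45.7 with DMSO. The median mitochondrial enzyme was at 9.45, 10.1 and 10.6 CPM per kb in the same order of groups. FARSA, the catalytic subunit of cytosolic phenylalanyl-tRNA synthetase, was the most abundant per length of the cytosolic class in each group (131, 146 and 123 CPM per kb), and CARS1, the cysteinyl enzyme, the least (8.22, 10.9 and 9.25). In the mitochondrial class IARS2, the isoleucyl enzyme, was highest (73.5, 96.0 and 83.0) and FARS2, the phenylalanyl enzyme, lowest (1.57, 2.23 and 2.48). The exon length is the union of all annotated transcripts, so genes with long rare exons are set too low. For 14 amino acids both classes have a gene of their own, and the cytosolic one stood above the mitochondrial one in 11 to 13 of the 14 pairs in each library. Per length, IARS2 was above IARS1 in all 6 libraries. The IARS1 to IARS2 ratio was 0.680 and 0.691 with palbociclib, 0.787 and 0.756 with GSK3326595, and 0.821 and 0.80 with DMSO. This order rests on the exon lengths used, 7401 bases for IARS1 and 4165 for IARS2. In CPM with no scaling to length IARS1 was above IARS2 in all 6 libraries (478 and 517 against 328 and 364 with DMSO).

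**Figure D1:**
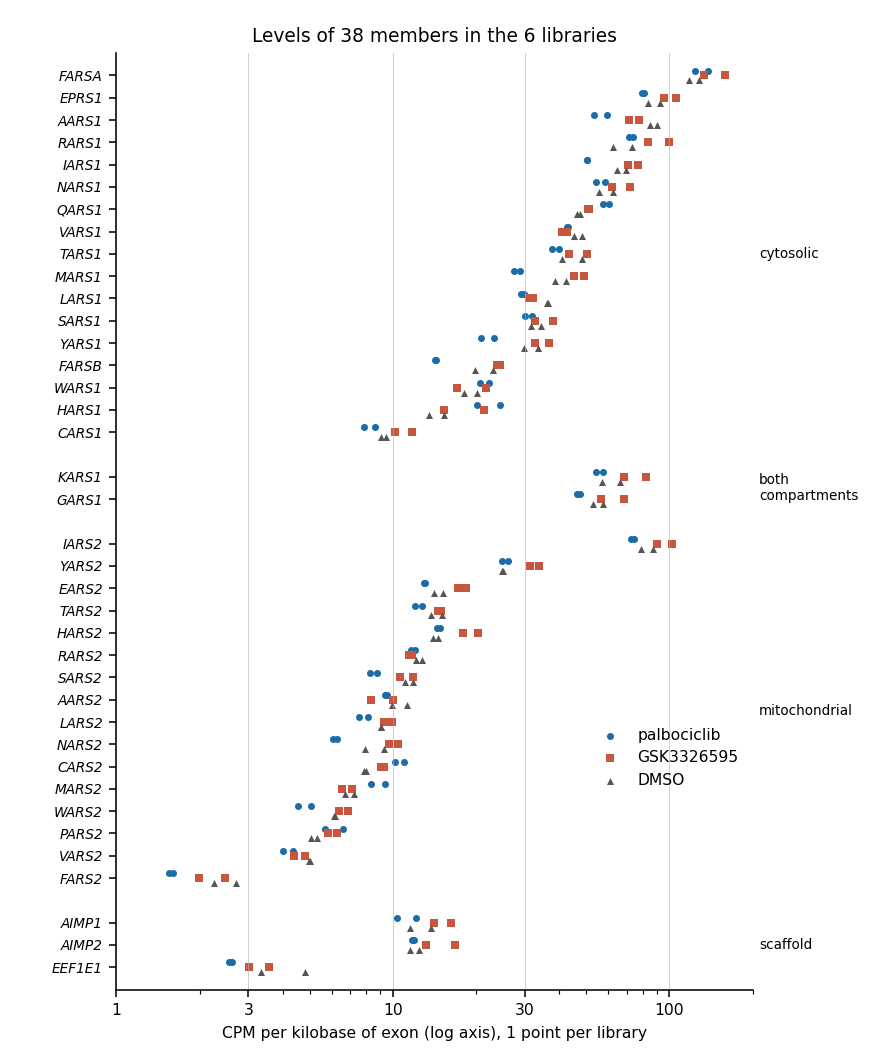
Level of 38 of the 40 members in each library, in CPM per kilobase of exon on a log axis, with members sorted within their class and 1 point per library. Cytosolic enzymes stand mostly right of mitochondrial ones, with class medians over all members of 40.9, 47.0 and 45.7 against 9.45, 10.1 and 10.6 CPM per kb in palbociclib, GSK3326595 and DMSO.

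The comparison of palbociclib with DMSO asked how inhibition of CDK4 and CDK6 moved these transcripts. Of the 40 members, 13 fell and 4 rose, and 23 were not called at a Benjamini-Hochberg adjusted p under 0.05 in edgeR's quasi-likelihood test. The 17 called members are 42.5% of the set, beside 39.5% of the 16381 genes tested. They were uneven in direction: 32.5% of the members fell and 10% rose, against 20.2% and 19.3% of all genes. The median log2 fold change was -0.17 over the members and -0.02 over all genes. Of the 40 estimates 30 were below 0, beside 8430 of the 16381 genes tested. Both palbociclib libraries stood below both DMSO libraries for 25 members (37.4% of all genes did) and above them for 6 (35.1% of all genes). Cytosolic and mitochondrial enzymes had similar counts, 7 lower and 2 higher of 20 in the cytosol (median -0.15) and 5 lower and 2 higher of 17 in mitochondria (median -0.18).

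Among the mitochondrial enzymes, those that fell included FARS2, the phenylalanyl enzyme (log2 fold change -0.66 ± 0.166, SE, edgeR adjusted p = 0.00780), NARS2, the asparaginyl enzyme (-0.47 ± 0.114), SARS2, the seryl enzyme (-0.43 ± 0.104), and WARS2, the tryptophanyl enzyme (-0.36 ± 0.111).

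Among cytosolic enzymes AARS1, the alanyl-tRNA synthetase (Gene ID 16; chromosome 16, 70252298 to 70289506), was at 241 and 267 CPM with palbociclib, 321 and 351 CPM with GSK3326595, and 383 and 407 CPM with DMSO. The 3 groups did not overlap, with palbociclib lowest and DMSO highest (log2 fold change -0.64 ± 0.0942 against DMSO, SE, adjusted p = 0.000247). FARSB, the other subunit of phenylalanyl-tRNA synthetase, was at 47.7 and 48.3 CPM with palbociclib, 80.1 and 82.5 with GSK3326595, and 66.8 and 77.5 with DMSO. Here palbociclib was lowest and GSK3326595 highest, and the log2 fold change of palbociclib over DMSO was -0.59 ± 0.0940 (adjusted p = 0.000425). Its partner FARSA, which binds FARSB in a tetramer, had 302 and 337 CPM with palbociclib and 286 and 311 with DMSO and was not called (0.10 ± 0.106, adjusted p = 0.488). MARS1, the methionyl enzyme, was at 192 and 202 CPM with palbociclib, 317 and 346 with GSK3326595, and 272 and 298 with DMSO, in the same order of groups as FARSB (-0.53 ± 0.0910, adjusted p = 0.000701). YARS1, the tyrosyl enzyme, had 170.4 and 191 CPM with palbociclib, 268 and 301 with GSK3326595, and 244 and 275 with DMSO, the last 2 groups overlapping (-0.52 ± 0.10, adjusted p = 0.00148). Both were lowest with palbociclib, with no overlap with DMSO. IARS1 (-0.42 ± 0.0938) and LARS1, the leucyl enzyme (-0.30 ± 0.0823), fell too.

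A further 4 members rose with palbociclib. HARS1 (Gene ID 3035; chromosome 5, 140673905 to 140691370) had 159 and 192 CPM with palbociclib, 120.4 and 167 with GSK3326595, and 106 and 120.1 with DMSO. Its replicates lay apart, but both palbociclib libraries were above both DMSO libraries (0.63 ± 0.141, adjusted p = 0.00384). With GSK3326595 HARS1 was not called, though both libraries stood above both DMSO libraries (0.34 ± 0.141, edgeR adjusted p = 0.111). HARS1 was not called between the inhibitors either (0.29 ± 0.140, adjusted p = 0.134). Its neighbour HARS2 had 53.9 and 55.2 CPM with palbociclib and 54.5 and 52.1 with DMSO and was not called (0.03 ± 0.0928). HARS1 also shares exonic bases with WDR55 on the opposite strand, which had 86.8 and 80.1 CPM with palbociclib and 58.9 and 60.9 with DMSO, so reads of the 2 genes may be mixed. CARS2, the mitochondrial cysteinyl enzyme, was at 115 and 106 CPM with palbociclib, 96.8 and 94.9 with GSK3326595, and 83.3 and 82.3 with DMSO, 3 groups that did not overlap (0.42 ± 0.0806, adjusted p = 0.00151). QARS1, the glutaminyl enzyme, was at 284 and 270.2 CPM with palbociclib, 240.1 and 240.4 with GSK3326595, and 224 and 218 with DMSO, in the same order (0.32 ± 0.0824, adjusted p = 0.00812). MARS2, the mitochondrial methionyl enzyme, was at 25.1 and 28.3 CPM with palbociclib, 21.5 and 19.8 with GSK3326595, and 21.8 and 20.3 with DMSO, highest with palbociclib (0.34 ± 0.112, adjusted p = 0.0295).

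Of the 17 calls, 7 were kept in each fit that left out 1 library, among them AARS1, FARSB, MARS1, YARS1, CARS2 and HARS1. Without palbociclib replicate 2 the number lower was 6 and the calls lost in the same edgeR test included LARS1 (adjusted p = 0.121), FARS2 (0.0585), MARS2 (0.238), NARS2 (0.0514), SARS2 (0.0615), WARS2 (0.18) and EEF1E1 (0.118). Without DMSO replicate 2 they included IARS1 (0.0567), LARS1 (0.0692), MARS2 (0.133), NARS2 (0.0842), WARS2 (0.108) and EEF1E1 (0.295). Without DMSO replicate 1 those of LARS1 (0.0627), FARS2 (0.0698), MARS2 (0.0551) and WARS2 (0.0688) were lost, and without palbociclib replicate 1 those of LARS1 (0.0752), QARS1 (0.0938) and EEF1E1 (0.0943). The call of MARS2 was also lost by DESeq2 (adjusted p = 0.0584) and with library totals as the scaling (0.0521), and that of WARS2 by DESeq2 (0.0785).

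**Figure D2:**
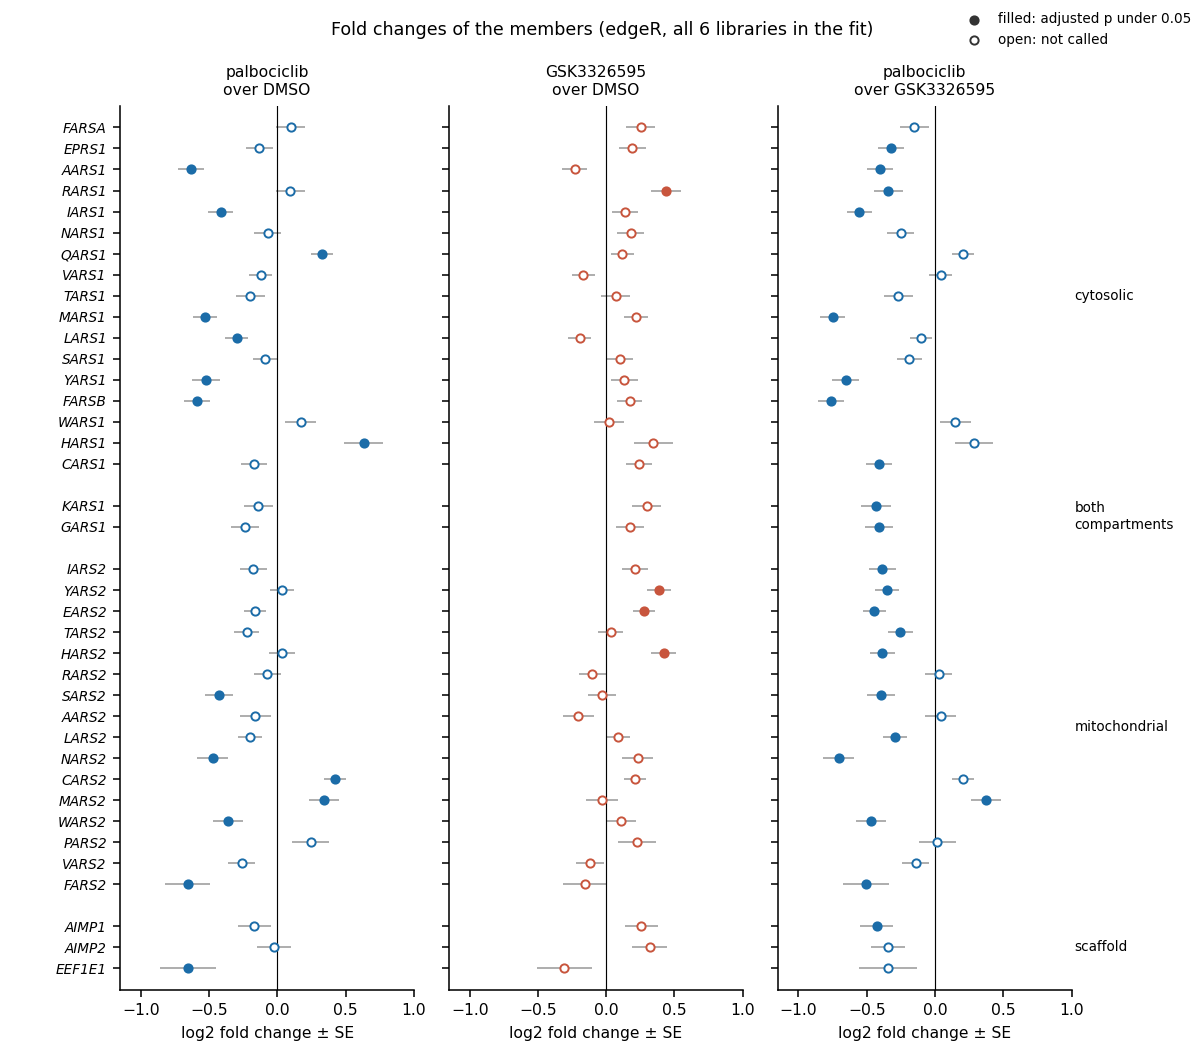
Log2 fold change of 38 of the 40 members (points) with its standard error (line) for palbociclib over DMSO, GSK3326595 over DMSO and palbociclib over GSK3326595, filled where the adjusted p is under 0.05. In the palbociclib over DMSO panel 11 filled points lie left of 0 and 4 right of it, in the GSK3326595 over DMSO panel 0 and 4, and in the palbociclib over GSK3326595 panel 21 and 1.

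The 11 genes of the multisynthetase complex were not called as a block under palbociclib. In that complex 5 genes fell, among them IARS1, LARS1, MARS1 and EEF1E1, QARS1 rose and 5 genes were not called (median -0.17). That is 45.5% lower and 9.09% higher, against 20.2% and 19.3% of all genes. Of the 12 cytosolic enzymes outside the complex, 3 fell (25%) and 1 rose (8.33%, median -0.15). EEF1E1, also known as AIMP3, had the lowest CPM of the members, with no scaling to length (per kilobase FARS2 was lower), at 5.53 and 5.38 CPM with palbociclib, 6.35 and 7.51 with GSK3326595, and 7.02 and 10.1 with DMSO (log2 fold change of palbociclib over DMSO -0.65 ± 0.204, adjusted p = 0.0238). Palbociclib was lowest, and the GSK3326595 and DMSO libraries overlapped. Its exons overlap those of the readthrough gene EEF1E1-BLOC1S5 on the same strand, which is listed at 0 in all 6 libraries. BLOC1S5, the other gene in that name, had 0 or 1 counts in each library, against 109 to 194 for EEF1E1. How reads shared by these genes were counted is not given in the sources used here. Whether the level of EEF1E1 leaves out such reads was not tested. AIMP1, which binds tRNA, had 34.5 and 40.2 CPM with palbociclib, 46.8 and 53.8 with GSK3326595, and 38.4 and 45.7 with DMSO. AIMP2, which holds the complex together, had 21.5 and 21.8 CPM with palbociclib, 24.2 and 30.7 with GSK3326595, and 21.2 and 22.8 with DMSO. Neither was called for either inhibitor against DMSO, and for both the palbociclib and DMSO libraries overlapped. AIMP2 with GSK3326595 was called higher without GSK3326595 replicate 1 (adjusted p = 0.0184). The 2 enzymes that serve both compartments were not called against DMSO either in the fit of all 6 libraries. GARS1, the glycyl enzyme, had 192 and 197 CPM with palbociclib, 235 and 283 with GSK3326595, and 220.0 and 239 with DMSO. KARS1, the lysyl enzyme, had 221 and 234 CPM with palbociclib, 279 and 336 with GSK3326595, and 232 and 269 with DMSO. GARS1 with palbociclib was called lower with library totals as the scaling (adjusted p = 0.0300), with the 4 compared libraries alone (0.0317) and without GSK3326595 replicate 2 (0.0320). KARS1 with GSK3326595 was called higher with library totals (adjusted p = 0.0348) and without GSK3326595 replicate 1 (0.0184).

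For PRMT5 inhibition the same question was put by setting GSK3326595 against the same DMSO libraries. Only 5 of the 40 members (12.5%) were called, beside 18.8% of all genes. RARS1, HARS2, YARS2 and EARS2 rose (10% of the members, against 8.58% of all genes) and 1 member fell (2.5% of the members, against 10.2% of all genes). Estimates leaned upward, though most were not called: 29 of 40 were above 0, beside 8171 of the 16381 genes tested. The median log2 fold change was 0.14 over the members, against -0.00 over all genes. Both GSK3326595 libraries stood above both DMSO libraries for 22 members (27.6% of all genes did) and below them for 6 (29.7% of all genes). The median was 0.16 in the cytosolic class, with 1 of 20 called higher and 0 lower (2 at an unadjusted p under 0.05, 0 by DESeq2), and 0.09 in the mitochondrial class, with 3 of 17 higher and 1 lower.

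HARS2, the mitochondrial histidyl enzyme (Gene ID 23438, chromosome 5, 140691455 to 140699305), had 67.0 and 75.7 CPM with GSK3326595 and 54.5 and 52.1 CPM with DMSO (0.42 ± 0.0926, edgeR adjusted p = 0.00890). Its exons share 437 bases with HARS1 on the opposite strand and overlap ZMAT2 on the same strand, so reads of these genes may be mixed. YARS2, the mitochondrial tyrosyl enzyme, had 67.4 and 72.8 CPM with GSK3326595, against 53.3 and 53.9 CPM with DMSO (0.39 ± 0.0886, adjusted p = 0.0110). RARS1, the cytosolic arginyl enzyme, had 287 and 342 CPM with GSK3326595 and 214 and 250.2 CPM with DMSO (0.44 ± 0.107, adjusted p = 0.0150). For these 3 genes both GSK3326595 libraries were above both DMSO libraries and above both palbociclib libraries, which were at 53.9 and 55.2 CPM for HARS2, 56.3 and 53.5 for YARS2, and 252 and 244 for RARS1. EARS2, which charges mitochondrial tRNA with glutamate, had 98.4 and 105 CPM with GSK3326595 and 81.0 and 86.7 CPM with DMSO (0.28 ± 0.0819, adjusted p = 0.0341). The palbociclib libraries had 74.5 and 74.9 CPM of EARS2, the lowest of the 3 groups.

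None of these 5 calls was kept in every fit that left out 1 library. Without DMSO replicate 1 the calls of RARS1 (adjusted p = 0.157), EARS2 (0.268) and YARS2 (0.0848) were lost. Without DMSO replicate 2 those lost included EARS2 (0.0847), HARS2 (0.0705) and YARS2 (0.0614), and without GSK3326595 replicate 2 they were all 4 members that rose (RARS1 at 0.0817, EARS2 at 0.148, HARS2 at 0.0514 and YARS2 at 0.0519). EARS2 was also lost without palbociclib replicate 1 (0.0733) or palbociclib replicate 2 (0.0734), with no filter on low counts (0.0570), with the 4 compared libraries alone (0.0785) and by DESeq2 (0.0599). Without GSK3326595 replicate 1 the number of members called higher was 9.

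**Figure D3:**
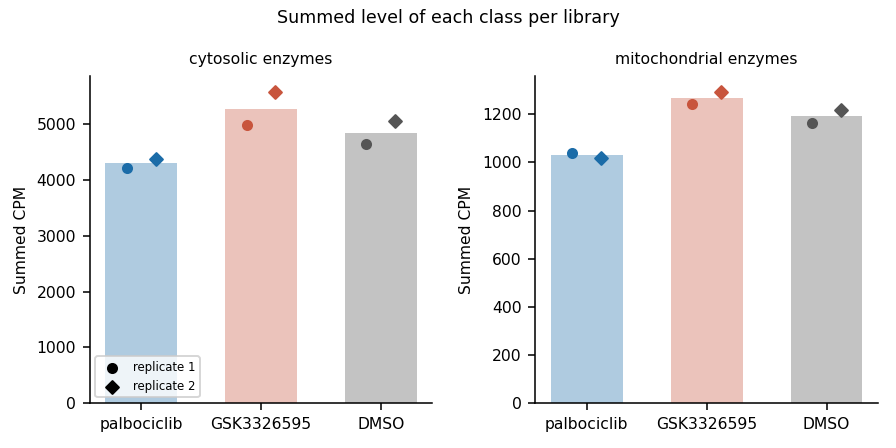
Summed CPM of the 20 cytosolic enzymes (left panel) and the 17 mitochondrial enzymes (right panel) in palbociclib, GSK3326595 and DMSO. Bars stand at the mean of the 2 libraries, circles show replicate 1 and diamonds replicate 2. Cytosolic enzymes summed to 4216 and 4380 CPM with palbociclib, 4979 and 5584 with GSK3326595, and 4641 and 5061 with DMSO.

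Set directly against GSK3326595, palbociclib had lower levels of most of the set. Of the 40 members 23 were lower and 1 was higher (60.0% called in all, beside 34.8% of all genes). The share lower was 57.5%, against 18.2% of all genes, and the share higher 2.5%, against 16.6%. Both palbociclib libraries stood below both GSK3326595 libraries for 30 members (35.7% of all genes) and above them for 4 (31.8% of all genes). Both classes took part: 11 of 20 cytosolic enzymes (median -0.33) and 11 of 17 mitochondrial enzymes (median -0.35) were lower, against a median of -0.03 over all genes, and MARS2 was higher (0.37 ± 0.113, edgeR adjusted p = 0.0230). Summed over the class, cytosolic enzymes made 4216 and 4380 CPM with palbociclib and 4979 and 5584 CPM with GSK3326595, and mitochondrial enzymes made 1041 and 1019 CPM with palbociclib and 1241 and 1294 CPM with GSK3326595.

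The lowest p-values in this comparison belonged to MARS1 (log2 fold change of palbociclib over GSK3326595 -0.75 ± 0.0912, adjusted p = 0.000103) and FARSB (-0.76 ± 0.0940, adjusted p = 0.000113). YARS1 was lower as well (-0.66 ± 0.10, adjusted p = 0.000446), and the levels of these 3 genes are given above. NARS2, the mitochondrial asparaginyl enzyme, had 19.8 and 19.2 CPM with palbociclib, 33.0 and 30.5 with GSK3326595, and 24.9 and 29.2 with DMSO, and the 3 groups did not overlap (-0.71 ± 0.114, adjusted p = 0.000644). Several members that were not called against DMSO for either inhibitor were lower with palbociclib than with GSK3326595: GARS1 (-0.41 ± 0.101), KARS1 (-0.43 ± 0.108), CARS1 (-0.41 ± 0.0929), EPRS1, which joins glutamate and proline to their tRNAs (-0.32 ± 0.0966), AIMP1 (-0.43 ± 0.121), IARS2 (-0.39 ± 0.0967), LARS2 (-0.29 ± 0.0888) and TARS2 (-0.26 ± 0.0914). In the multisynthetase complex 7 of the 11 genes were called lower with palbociclib (63.6%, against 18.2% of all genes) and 0 higher in edgeR (16.6% of all genes, 1 at an unadjusted p under 0.05, 0 by DESeq2).

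In this comparison 8 calls were kept in each fit that left out 1 library, among them MARS1, FARSB, YARS1, NARS2, IARS1 and EARS2. Without palbociclib replicate 1 the number lower was 11, and the calls of GARS1 (adjusted p = 0.0688), KARS1 (0.0840), AARS1 (0.101), CARS1 (0.0728), EPRS1 (0.149), RARS1 (0.105), FARS2 (0.127), HARS2 (0.0646), IARS2 (0.0648), LARS2 (0.199), TARS2 (0.123) and AIMP1 (0.159) were lost in edgeR. Without palbociclib replicate 2 those of EPRS1 (0.12), RARS1 (0.148), FARS2 (0.158), IARS2 (0.0801), LARS2 (0.0692), MARS2 (0.201), SARS2 (0.0918), TARS2 (0.263), WARS2 (0.0795) and YARS2 (0.0963) were lost. Without GSK3326595 replicate 2 those of GARS1 (0.0582), KARS1 (0.0551), EPRS1 (0.0939), RARS1 (0.167), FARS2 (0.212), LARS2 (0.0995), MARS2 (0.104), TARS2 (0.0737) and AIMP1 (0.0793) were lost. Without GSK3326595 replicate 1 those of SARS2 (0.0768) and TARS2 (0.162) were lost. LARS2 and TARS2 were lost without DMSO replicate 1 (0.0537 and 0.0837) and without DMSO replicate 2 (0.0540 and 0.0844). By DESeq2 the calls of FARS2 (adjusted p = 0.0817), LARS2 (0.0640) and TARS2 (0.125) were lost.

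The ratio of the summed CPM of cytosolic enzymes to that of mitochondrial enzymes was 4.05 and 4.30 with palbociclib, 4.01 and 4.32 with GSK3326595, and 3.98 and 4.15 with DMSO, groups that overlapped, and the difference between groups was not tested. All 40 members summed to 5319 and 5467 CPM with palbociclib, 6297 and 6970 with GSK3326595, and 5873 and 6359 with DMSO. These sums depend on the TMM adjustment and are not shares of the counts of a library. Within single amino acids the spread was wider. The per-length MARS1 to MARS2 ratio was 3.29 and 3.06 with palbociclib, 6.34 and 7.51 with GSK3326595, and 5.35 and 6.28 with DMSO, so the palbociclib libraries were below all others. The HARS1 to HARS2 ratio was 1.40 and 1.66 with palbociclib, 0.855 and 1.05 with GSK3326595, and 0.929 and 1.10 with DMSO, with palbociclib above all others. For cysteine the CARS1 to CARS2 ratio was 0.714 and 0.845 with palbociclib, 1.10 and 1.29 with GSK3326595, and 1.19 and 1.15 with DMSO. For tyrosine the YARS1 to YARS2 ratio was 0.793 and 0.936 with palbociclib, 1.04 and 1.09 with GSK3326595, and 1.20 and 1.34 with DMSO. Per length, in these 2 pairs the mitochondrial gene was above the cytosolic one with palbociclib and below it in the other 4 libraries. For cysteine the same order held in CPM with no scaling to length (CARS1 78.8 and 86.2, CARS2 115 and 106 with palbociclib). For tyrosine it rests on the exon lengths used (8212 bases for YARS1, 2152 for YARS2). In CPM YARS1 was above YARS2 in all 6 libraries (170.4 and 191 against 56.3 and 53.5 with palbociclib). These 4 pairs were picked after their values were seen, and their differences between groups were not tested.

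The replicate number moved with the cytosolic class. With palbociclib 15 of the 20 cytosolic enzymes (75.0%) were higher in replicate 2 than in replicate 1, with GSK3326595 18 (90.0%) and with DMSO 17 (85.0%). Of the 17 mitochondrial enzymes 6, 8 and 9 were higher in replicate 2 in the same order, and of all genes tested 49.3%, 50.2% and 49.1%. The median log2 ratio of replicate 2 to replicate 1 over the cytosolic enzymes was 0.07 with palbociclib, 0.19 with GSK3326595 and 0.14 with DMSO. The labels give no batch, day or culture for these numbers. With the replicate number as a block, 9 cytosolic enzymes were higher and 3 lower for GSK3326595 over DMSO, against 1 and 0 without it. For palbociclib over DMSO 3 were higher and 10 lower with the block, against 2 and 7 without it. The cause of the replicate difference was not tested.

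**Figure D4:**
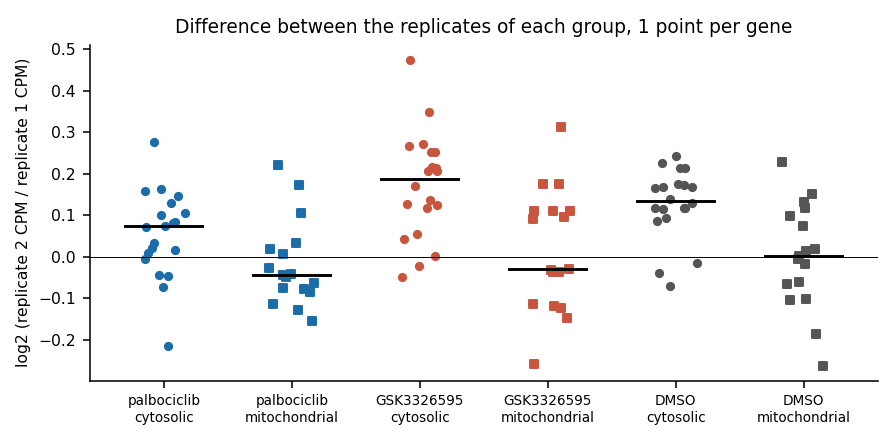
Log2 ratio of the CPM in replicate 2 to that in replicate 1 for each cytosolic and mitochondrial enzyme (points) in palbociclib, GSK3326595 and DMSO, with a bar at the median. Cytosolic enzymes lie mostly above 0, with medians of 0.07, 0.19 and 0.14, and mitochondrial enzymes lie about it, with medians of -0.04, -0.03 and 0.00.

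Genes that work beside the synthetases were followed as lists. In the ATF4 and amino acid response list (34 genes tested), 13 fell and 5 rose with palbociclib (median log2 fold change -0.21, against -0.02 over all genes). Of all genes 20.2% fell and 19.3% rose, against which the counts of each list for palbociclib over DMSO are to be read. PHGDH, the first enzyme of serine synthesis, had 84.1 and 84.4 CPM with palbociclib and 193 and 203 CPM with DMSO (-1.23 ± 0.0808, edgeR adjusted p = 4.68e-07). CEBPG, a dimer partner of ATF4, had 15.6 and 16.1 CPM with palbociclib and 34.7 and 39.7 CPM with DMSO (-1.23 ± 0.110, adjusted p = 4.97e-06). ATF4 itself fell, with 158 and 144 CPM with palbociclib and 235 and 245 CPM with DMSO (-0.67 ± 0.0856, adjusted p = 8.11e-05). XPOT, which exports tRNA from the nucleus, had 227 and 234 CPM with palbociclib and 347 and 389.8 CPM with DMSO (-0.68 ± 0.0919, adjusted p = 0.000128). All 4 had both palbociclib libraries below both DMSO libraries. Other genes of the list rose with palbociclib, among them STC2, a secreted glycoprotein gene (1.11 ± 0.136, adjusted p = 6.12e-05), and SESN2, whose product senses leucine (0.73 ± 0.151, adjusted p = 0.00234). With GSK3326595, 7 of the list fell and 4 rose (median -0.07), where 10.2% of all genes fell and 8.58% rose. The cystine transporter gene SLC7A11 had 44.3 and 49.2 CPM with GSK3326595, against 79.5 and 85.1 CPM with DMSO (-0.81 ± 0.102, adjusted p = 0.000260), and the glycine transporter gene SLC6A9 fell too (-0.99 ± 0.167, adjusted p = 0.00191). ATF3 (1.36 ± 0.179, adjusted p = 0.000369) and SESN2 (1.04 ± 0.151, adjusted p = 0.000664) rose with GSK3326595. Palbociclib against GSK3326595 had 12 lower and 4 higher (median -0.29), beside 18.2% and 16.6% of all genes. The number that rose with palbociclib was 2 without palbociclib replicate 2. The number that rose with GSK3326595 was 7 without GSK3326595 replicate 1, and the number lower against GSK3326595 was 18 without that library.

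Of 18 cytosolic translation factor genes tested, 2 rose and 1 fell with palbociclib (median -0.02, against 19.3% and 20.2% of all genes), and 3 rose and 0 fell with GSK3326595 (8.58% and 10.2% of all genes, median 0.21, with 0 lower at an unadjusted p under 0.05 in edgeR and 0 by DESeq2). EEF1A2, the elongation factor that brings charged tRNA to the ribosome in some tissues, had 387 and 360.1 CPM with palbociclib, 153 and 166 CPM with GSK3326595, and 115 and 103 CPM with DMSO, and rose in both comparisons (1.78 ± 0.0941, adjusted p = 1.49e-07, and 0.55 ± 0.0930, adjusted p = 0.00186, in edgeR). EIF3D, an initiation factor subunit, rose with GSK3326595 (0.48 ± 0.0837, adjusted p = 0.00238). EEF2, the translocation factor, rose with palbociclib (0.36 ± 0.128, adjusted p = 0.0410) and EIF2S1, the eIF2 subunit that stress kinases phosphorylate, fell (-0.32 ± 0.0868, adjusted p = 0.0116). The EEF2 call was lost without any 1 of the palbociclib or DMSO libraries (adjusted p 0.143 to 0.288) and that of EIF2S1 without DMSO replicate 2 (0.153), palbociclib replicate 1 (0.0790) or palbociclib replicate 2 (0.0777). Palbociclib against GSK3326595 had 8 of the 18 lower (44.4%) and 1 higher (5.56%, median -0.19), beside 18.2% and 16.6% of all genes. Fewer were lower without palbociclib replicate 1 or without GSK3326595 replicate 2. EIF4A1, the remaining gene of this list, is listed at 0 in all 6 libraries and was not tested.

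Of 19 mitochondrial translation genes, 3 fell and 2 rose with palbociclib (15.8% and 10.5%, against 20.2% and 19.3% of all genes, median -0.06), and 1 fell and 1 rose with GSK3326595 (against 10.2% and 8.58% of all genes, median 0.10). These counts are no more than the share of all genes gives. QRSL1, a subunit of the enzyme that turns the product of EARS2 on glutamine tRNA into glutaminyl-tRNA, had 15.2 and 14.6 CPM with palbociclib, 19.7 and 19.6 with GSK3326595, and 20.8 and 21.6 with DMSO (-0.51 ± 0.111, edgeR adjusted p = 0.00354 for palbociclib). MTRFR, a ribosome rescue factor, fell with palbociclib (-0.38 ± 0.108, adjusted p = 0.0149) and with GSK3326595 (-0.63 ± 0.110, adjusted p = 0.00240). MTRF1L, a release factor (0.38 ± 0.103, adjusted p = 0.0116), and GFM2, a ribosome recycling factor (0.24 ± 0.0827, adjusted p = 0.0382), rose with palbociclib, and the elongation factor gene GFM1 rose with GSK3326595 (0.38 ± 0.119, adjusted p = 0.0434). In the 15 genes of mitochondrial tRNA maturation, 3 fell and 1 rose with palbociclib (20.2% and 19.3% of all genes, median -0.19), and 1 fell and 2 rose with GSK3326595 (10.2% and 8.58% of all genes, median 0.10). HSD17B10 and TRMT10C, subunits of the same tRNA processing enzyme, went opposite ways with palbociclib (0.45 ± 0.13, adjusted p = 0.0162, and -0.28 ± 0.0892, adjusted p = 0.0238), and the tRNA modifying enzyme gene GTPBP3 fell (-0.44 ± 0.111, adjusted p = 0.00746). With GSK3326595, HSD17B10 (0.49 ± 0.131, adjusted p = 0.0228) and the isopentenyl transferase gene TRIT1 (0.34 ± 0.103, adjusted p = 0.0377) rose, and TRNT1, which adds the CCA end that a synthetase charges, fell (-0.49 ± 0.115, adjusted p = 0.0126).

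Most of the calls named in these 2 lists were lost in some fit that left out 1 library, and QRSL1 with palbociclib and MTRFR with GSK3326595 were kept in all of them. For palbociclib, MTRF1L was lost without palbociclib replicate 1 (adjusted p = 0.114) or DMSO replicate 2 (0.0541), MTRFR without palbociclib replicate 2 (0.133) or DMSO replicate 1 (0.0957), HSD17B10 without palbociclib replicate 2 (0.145) or DMSO replicate 1 (0.136), and GTPBP3 without palbociclib replicate 1 (0.0615). GFM2 (0.0937 to 0.229) and TRMT10C (0.0636 to 0.199) were lost without any 1 of the palbociclib or DMSO libraries. For GSK3326595, GFM1 (0.283 and 0.319) and HSD17B10 (0.134 and 0.195) were lost without GSK3326595 replicate 2 or DMSO replicate 1, TRNT1 without GSK3326595 replicate 2 (0.0830), and TRIT1 in each of the 6 fits (0.0505 to 0.183). GFM1 was also lost without either palbociclib library (0.0627 each). By DESeq2 the calls of GFM2 (adjusted p = 0.0599), MTRFR (0.0588) and TRMT10C (0.0715) with palbociclib and of TRIT1 (0.0604) with GSK3326595 were lost.

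Of the 7 tested genes of aminoacyl-tRNA proofreading and selenocysteine, TARS3, a second cytosolic threonyl-tRNA synthetase gene that the selection rule leaves out, rose with palbociclib. It had 8.37 and 9.60 CPM with palbociclib, 6.64 and 6.69 with GSK3326595, and 6.47 and 5.77 with DMSO (0.56 ± 0.170, edgeR adjusted p = 0.0214). Leaving out palbociclib replicate 1 (0.0531), palbociclib replicate 2 (0.18) or DMSO replicate 2 (0.114) ended that call. PSTK, the kinase that acts on seryl-tRNA for selenocysteine, rose with GSK3326595 (0.71 ± 0.223, adjusted p = 0.0434), a call kept only without GSK3326595 replicate 2 among the 6 fits (0.0668 to 0.222 in the other 5) and lost by DESeq2 (0.0763). In this list 0 genes fell with either inhibitor in edgeR's fit of all 6 libraries or by DESeq2, and at most 1 fell with palbociclib in a fit that left out 1 library (1 with palbociclib and 0 with GSK3326595 at an unadjusted p under 0.05). Palbociclib against GSK3326595 had 2 lower and 1 higher of these 7, 5 lower and 1 higher of the 19 mitochondrial translation genes, and 6 lower and 1 higher of the 15 tRNA maturation genes, where 18.2% of all genes were lower and 16.6% higher. Without palbociclib replicate 1 the numbers lower were 0, 2 and 2 in the same order of lists, and without palbociclib replicate 2 the last was 2 as well.

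**Figure D5:**
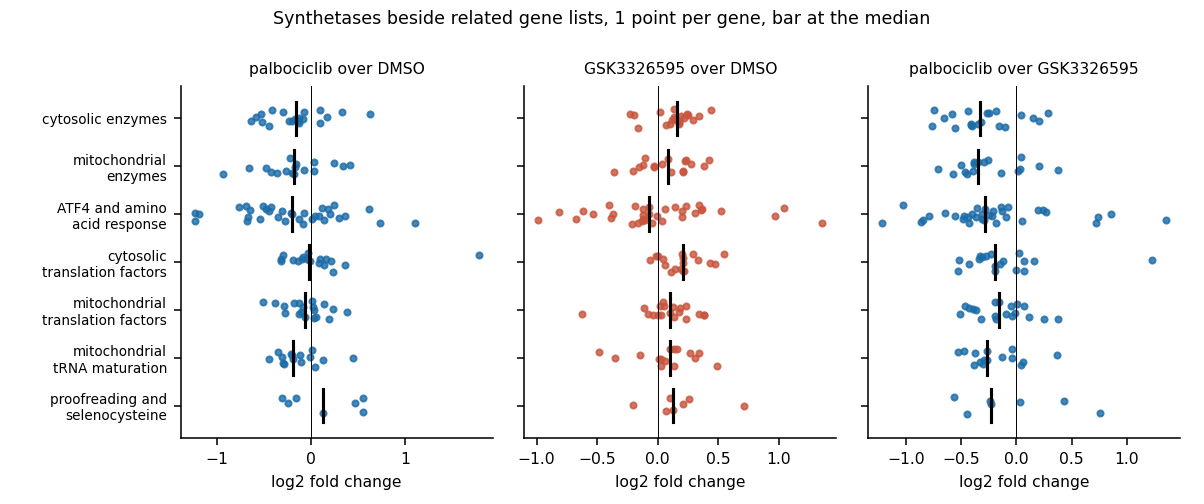
Log2 fold change of every tested gene (points) in the cytosolic and mitochondrial enzymes and in 5 related lists, for palbociclib over DMSO, GSK3326595 over DMSO and palbociclib over GSK3326595, with a bar at each median. In the palbociclib over GSK3326595 panel the medians are -0.33 and -0.35 for the 2 enzyme classes, -0.29 for the ATF4 list, -0.19 for cytosolic and -0.16 for mitochondrial translation factors.

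The 8 members with TGATGNAA in their promoter window were set beside the other 25 members with a window. With palbociclib over DMSO 3 of the 8 fell (AARS1, IARS1 and MARS1). Of the 25, 6 fell and 4 rose, beside 20.2% and 19.3% of all genes. Estimates were below 0 for 7 of the 8 (median -0.22), for 16 of the 25 (median -0.13) and for 8430 of the 16381 genes tested. With palbociclib over GSK3326595 6 of the 8 were lower (median -0.41), against 14 lower and 1 higher of the 25 (median -0.34), beside 18.2% and 16.6% of all genes. With GSK3326595 over DMSO YARS2 rose of the 8 (median 0.18) and 3 of the 25 rose (median 0.19), beside 8.58% of all genes. The difference between these 2 sets of members was not tested.

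A total of 24 of the 40 members share exonic bases with another annotated gene, 20 of them with one on the opposite strand, and the strand setting of the counting is not given in the sources used here. Among the 16 members without such an overlap, 4 fell and 1 rose with palbociclib over DMSO (31.2% called, below the 39.5% of all genes, median -0.13). With GSK3326595 over DMSO 2 rose and 0 fell (12.5% and 0%, against 8.58% and 10.2% of all genes, median 0.12). In that comparison 1 of the 16 was lower at an unadjusted p under 0.05 in edgeR and 0 by DESeq2. With palbociclib over GSK3326595 9 were lower and 1 was higher (56.25% and 6.25%, against 18.2% and 16.6% of all genes, median -0.31). The 24 members with an overlap had 9 lower and 3 higher with palbociclib over DMSO (37.5% and 12.5%, against 20.2% and 19.3% of all genes, median -0.20). SARS2 shares bases with MRPS12, which moved the other way with palbociclib (0.33 ± 0.0946, edgeR adjusted p = 0.0167), and UBFD1 beside EARS2 rose (0.58 ± 0.0917, adjusted p = 0.000376), while EARS2 itself was not called (-0.17, adjusted p = 0.129). S100PBP beside YARS1 moved the same way as YARS1 (-0.58 ± 0.0945, adjusted p = 0.000514). DDIT3, the stress factor gene opposite MARS1, was at 12.6 and 11.4 CPM with palbociclib and 13.3 and 13 CPM with DMSO, far below MARS1.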

How the data were processed

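Each of the 6 libraries has its own table, in which the authors give unnormalized read counts by NCBI Gene ID (the deposited values are whole numbers with unequal totals). Per the submitters' processing notes, the tools were CASAVA 1.8.2, cutadapt 1.7, HISAT2, featureCounts 1.6.2 and limma, on hg38. No source used here names the annotation, the strand option or how shared reads were assigned, so overlapping genes are uncertain. RefSeq symbols (GRCh38.p14) matched 27745 of 28395 IDs. The 650 others, with 0.233% to 0.508% of a library's counts, stayed in the totals and tests.

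Counts were tested with edgeR 4.0.16 in R 4.3.3. The filter filterByExpr (minimum count 10) left 16381 genes, TMM factors ran from 0.958 to 1.04, and the 6 libraries entered a single quasi-likelihood fit with a term for each group (3 residual degrees of freedom, biological coefficient of variation 0.0839). Two-sided F tests were adjusted by Benjamini-Hochberg over all genes tested, and a gene was called under 0.05. SE is the absolute log2 fold change over the square root of F. The procedure was run on simulated counts with 200 genes changed in the palbociclib group, the same dispersion for every gene and no replicate difference. That setting is unlike these libraries, so the run does not bear on the calls given here. Exon lengths and overlaps came from GENCODE v29. Sequences came from RefSeq promoter windows. Alternatives were library totals, DESeq2 1.42.0 and its size factors, other filters and the 4 compared libraries alone. Further ones were the replicate number as a block, and each library left out. Leaving out a library of a compared group leaves 1 library there, and most such fits called fewer of all genes too. Lost calls are therefore not shown to be particular to the members.

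The members, the lists and the naming rule were chosen with earlier results of these data known. Library values are given for the 6 called members of smallest p per direction for each inhibitor against DMSO, the 6 of smallest p for palbociclib against GSK3326595, the scaffold genes, GARS1 and KARS1. From each list, the 2 called genes of smallest p per direction against DMSO are named, and ATF4, XPOT and genes overlapping a member were added after their values were seen. Counts behind the members limit counting error only, and no interval beyond SE and SD is given. Values of some members are counted in the totals but not reported here by name.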

Additional observations from a re-analysis of the deposited data

How the results depend on the processing

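Over 13 alternatives the results for called members, the scaffold genes, GARS1 and KARS1 kept their direction and side of the threshold in 640 cases, lost the call in 87 and gained one in 13. AIMP2 with palbociclib over DMSO, not called, turned sign without DMSO replicate 2 (log2 fold change 0.049, range -0.074 to 0.049 over the libraries left out). Leaving out 1 library gave 3993 to 7189 genes called for palbociclib over DMSO, with 6 to 15 members lower, 1 to 2 cytosolic enzymes higher and 4 to 8 lower, and 1 to 2 mitochondrial enzymes higher and 1 to 6 lower. For GSK3326595 over DMSO it gave 1738 to 3206 genes, 0 to 9 members higher and 0 to 1 lower, 0 to 5 cytosolic enzymes higher, and 0 to 3 mitochondrial enzymes higher and 0 to 1 lower. For palbociclib over GSK3326595 it gave 3299 to 5519 genes, 0 to 2 members higher and 11 to 24 lower, 0 to 2 cytosolic enzymes higher and 5 to 13 lower, and 0 to 1 mitochondrial enzymes higher and 4 to 9 lower. Library totals as the scaling called 1 mitochondrial enzyme higher for palbociclib over DMSO (DESeq2 also 1). For GSK3326595 over DMSO they called 2 members lower and 3 cytosolic enzymes higher and 1 lower, and for palbociclib over GSK3326595 2 members higher, 1 of them a cytosolic enzyme. A filter at a mean of 1 CPM called 2 members higher in that comparison, both mitochondrial. The causes of these shifts were not tested.

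The replicate numbers are shared by the groups, but the labels do not say what they mark. Deviations of same-numbered libraries correlated at 0.341 between GSK3326595 and DMSO, 0.179 between palbociclib and DMSO and 0.14 between palbociclib and GSK3326595. With the replicate block, 5769 genes were called for GSK3326595 over DMSO, with 16 members higher and 4 lower, 9 cytosolic enzymes higher and 3 lower, and 5 mitochondrial enzymes higher. For palbociclib over DMSO the block gave 21 members lower, 10 of them mitochondrial enzymes, and for palbociclib over GSK3326595 4 members higher, 2 cytosolic and 2 mitochondrial. In the related lists it gave 10 cytosolic translation factors higher with GSK3326595 and 4 lower with palbociclib over DMSO, and 9 ATF4 list genes higher with GSK3326595. It gave 5 mitochondrial translation genes higher with GSK3326595, 6 tRNA maturation genes lower with palbociclib, and 2 proofreading and selenocysteine genes lower with palbociclib over DMSO. GARS1 with palbociclib (adjusted p = 0.00335) and GARS1 (0.0441), KARS1 (0.000525), AIMP1 (0.0109) and AIMP2 (0.0124) with GSK3326595 over DMSO gained calls in edgeR under the block.

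With 2 libraries per group and log2 standard errors of about 0.1, changes of the size seen in most members lie near the threshold, and a member that was not called is not shown to be unchanged. CPM is relative to the adjusted size of its library, so a change in total RNA per cell cannot be seen.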
